A study of Mus musculus with 16 samples.

Results

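The 10 genes described here are Cd3e, Cd3d, Cd3g, Cd4, Cd8a, Il7r, Gata3, Icos, Foxp3 and Ctla4, which are known as genes of T cells and innate lymphoid cells. They were chosen by name, and a probe belongs to them when its accession maps to one of these symbols, which gave 13 of the 41174 probes on the array. Cd8a had 3 probes, Il7r had 2 and each of the others had 1. RNA of airway epithelium, harvested by brushing the airways of FvB mice, was hybridized to 16 one-colour arrays. Mice were either wild type (wt) or had a beta6 knockout (ko) of Itgb6, whose product, joined to the integrin chain alpha v, releases active TGF-beta at the surface of epithelium. Each genotype received saline or ovalbumin (OVA), an allergen from egg white given to model allergic asthma, so that the groups wt_saline, wt_OVA, ko_saline and ko_OVA held 4 arrays each. Mice aged 6 to 8 weeks were sensitized by injection into the peritoneum with 20 ug of OVA, or saline, on days 1, 4 and 7. Challenge with 10 ug of OVA, or saline, into the nose followed once a week for 9 weeks, and tissue was taken 24 h after the last dose. How the knockout allele was made, and whether each array holds RNA of 1 animal, is not given in the sources used here, so p-values measure the spread between these arrays, which may be technical. The comparisons ask whether chronic OVA challenge, the knockout, or both moved the lymphocyte genes in the epithelial harvest.

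T cells recognise peptides through the T cell receptor, which reaches the surface only together with the CD3 chains and signals through them. Cd4 and Cd8a encode the coreceptors that split T cells into those reading MHC class II and those reading MHC class I. Il7r encodes the receptor chain through which interleukin 7 and TSLP keep T cells and innate lymphoid cells alive. Gata3 encodes the transcription factor of type 2 helper T cells and of group 2 innate lymphoid cells, which make the cytokines of allergic airway disease, and Gata3 is also made outside lymphocytes. Icos is a costimulatory receptor of activated T cells, Foxp3 the transcription factor of regulatory T cells, and Ctla4 an inhibitory receptor of both regulatory and activated T cells. In the airway lining such cells sit among many more epithelial cells, so their RNA is a small part of a brushed sample.

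The promoter sequences of Cd3d, Cd3g and Il7r are shown because these were the members that left the floor of the measurement on every array. Each window holds the 250 bases before the annotated start, taken from RefSeq on GRCm38.p6 and read 5′ to 3′ on the strand of the gene. Capitals mark matches on either strand to 3 motifs of lymphocyte transcription factors: AGATAA for the GATA family, AGGAAG for the ETS family and TGTGGT for the RUNX family.
Cd3d: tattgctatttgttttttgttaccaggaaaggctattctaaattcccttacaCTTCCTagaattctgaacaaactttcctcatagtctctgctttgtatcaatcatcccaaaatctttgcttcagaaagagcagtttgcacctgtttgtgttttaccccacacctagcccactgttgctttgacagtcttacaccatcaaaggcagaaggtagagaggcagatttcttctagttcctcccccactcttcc
Cd3g: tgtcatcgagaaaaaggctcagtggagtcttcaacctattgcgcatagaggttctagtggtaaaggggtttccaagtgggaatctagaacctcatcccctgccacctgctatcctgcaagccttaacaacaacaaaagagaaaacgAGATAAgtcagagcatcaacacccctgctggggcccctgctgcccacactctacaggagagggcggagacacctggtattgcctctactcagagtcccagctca
Il7r: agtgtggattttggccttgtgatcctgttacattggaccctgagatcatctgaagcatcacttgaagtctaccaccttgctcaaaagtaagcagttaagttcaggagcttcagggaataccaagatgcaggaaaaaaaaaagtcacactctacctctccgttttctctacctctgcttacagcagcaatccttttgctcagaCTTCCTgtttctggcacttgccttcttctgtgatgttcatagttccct
The Cd3d window is chr9:44981536-44981785 on the plus strand and the Cd3g window is chr9:44980432-44980681 on the minus strand. These 2 genes are read away from each other, with 854 bases between their windows, and Cd3e lies on the same chromosome with 27826 bases between its window and that of Cd3d. The Il7r window is chr15:9529877-9530126 on the minus strand. The Cd3d window held 1 ETS match, 198 bases before the start, and the Il7r window held 1 ETS match, 48 bases before the start. The Cd3g window held 1 GATA match, 104 bases before the start. None of the motif matches overlapped. Among 32851 windows of the same length, 29.5% held the ETS letters, 9.99% the GATA letters and 14.05% the RUNX letters. The table held windows for 8 of the 10 genes and none for Cd4 or Icos. Such matches are letters in a window and were not tested against the expression values.

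Levels are given as relative log2 levels, which are the log2 of the background-subtracted signal of a probe divided by the 75th percentile of all probes on that array. A probe at 0 is thus as bright as that percentile, and the members lay below it on every array. The scanner software marks each spot as well above background or not, and the lowest such signal on the dimmest array set a common floor of -3.32 for the fit. The 75th percentile itself ran from 78.0 to 793 intensity units, so the same relative level is measured less well on the dim arrays, of which ko_OVA 4 was the dimmest. The Itgb6 probe lay at -0.93 to -0.39 on the wt arrays and at -1.71 to -0.73 on the ko arrays. Whether it lies in the disrupted part of the gene is not given in the sources used here, so it checks no genotype label. Of 9 matched airway epithelium markers, 7 were well above background on all 16 arrays, with Scgb1a1, the club cell secretoglobin, at 8.41 to 10.7. Markers of other tissues varied widely between arrays. The thyroid gene Tg ran from -1.27 to 7.30 and the skeletal muscle gene Tnni2 from -0.45 to 6.52. The part of such tissue in the members' levels was not tested. Arrays wt_OVA 1 and wt_OVA 2 stood apart from the other 14. They had 74.5% and 72.7% of probes well above background, against 43.3% to 62.7% elsewhere. Of 10262 dim probes, which were well above background on 1 to 6 arrays, 72.6% were so on wt_OVA 1 and 63.9% on wt_OVA 2, against 0.711% to 22.1% on the other arrays.

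**Figure D1:**
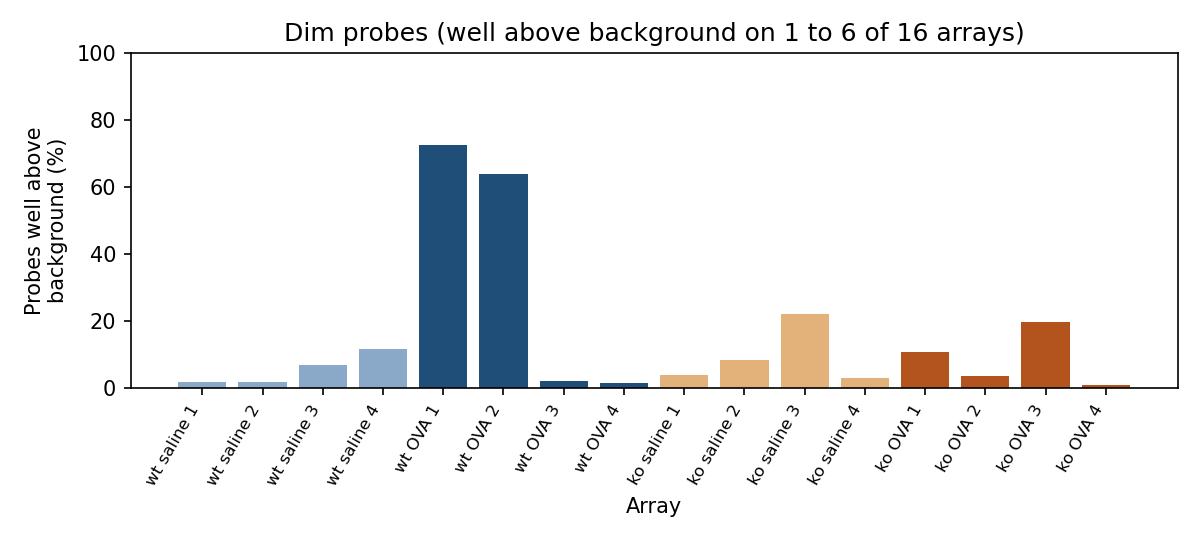
Bars give, for each of the 16 arrays, the percentage of 10262 dim probes (well above background on 1 to 6 arrays) that were well above background on that array. The bars of wt_OVA 1 (72.6%) and wt_OVA 2 (63.9%) stand far above the others, which reach 22.1% at most.

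The T cell receptor chain Cd3d was well above background on all 16 arrays. Its relative log2 levels in wt_saline were -1.53, -2.43, -2.06 and -2.12, and in wt_OVA they were -1.56, -2.77, -2.13 and -1.93. In ko_saline they were -2.41, -2.04, -2.54 and -2.36, and in ko_OVA they were -2.77, -3.08, -1.88 and -1.48. The groups overlapped throughout: ko_OVA alone held both the lowest array, ko_OVA 2, and the highest, ko_OVA 4. Group means were -2.04 ± 0.37 (SD, n = 4) for wt_saline, -2.10 ± 0.51 for wt_OVA, -2.34 ± 0.21 for ko_saline and -2.30 ± 0.75 for ko_OVA. In the order of their means (wt_saline, wt_OVA, ko_OVA, ko_saline), neighbouring groups differed by less than the SD of either.

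Cd3g, the gamma chain that pairs with epsilon in the same complex, was also well above background on all 16 arrays. Its levels in wt_saline were -1.86, -2.80, -2.04 and -2.33, and in wt_OVA they were -1.52, -1.87, -2.06 and -2.31. In ko_saline they were -2.25, -2.17, -2.47 and -2.95, and in ko_OVA they were -2.58, -3.23, -2.25 and -1.77. The highest array was wt_OVA 1 and the lowest was ko_OVA 2, and every pair of groups overlapped. The wt_saline mean was -2.26 ± 0.41 (SD, n = 4) and the wt_OVA mean -1.94 ± 0.33, while ko_saline and ko_OVA both averaged -2.46, with SDs of 0.35 and 0.62.

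Cd3e, the epsilon chain found in every CD3 dimer, was well above background on 12 of the 16 arrays but exceeded the common floor on only 2. Where it was well above background its level ran from -5.58 on ko_saline 3 to -2.78 on wt_saline 2. The 4 arrays on which it was not were wt_saline 1, wt_OVA 3, ko_OVA 1 and ko_OVA 4, so each group but ko_saline had at least 1. The fit of Cd3e therefore rests on 2 arrays, and its differences carry little information. Levels of different probes depend on the probe as well as on the RNA, so the 3 CD3 genes were not ranked against each other.

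Il7r, the interleukin 7 receptor chain, was well above background on 15 arrays with one probe and on 1 array, wt_OVA 2, with the other. With the first probe its levels in wt_saline were -2.34, -3.00, -2.36 and -2.40, and in wt_OVA they were -2.48, -2.85, -2.65 and -2.24. In ko_saline they were -2.26, -2.50, -2.27 and -3.01, and in ko_OVA they were -3.14, -2.99, -2.78 and -1.70. The array below the others of wt_saline, wt_saline 2, was the one on which it was not well above background. The highest array of all was ko_OVA 4, while the other 3 arrays of that group lay below every wt_saline array that was well above background. Means were -2.53 ± 0.32 (SD, n = 4), -2.55 ± 0.26, -2.51 ± 0.35 and -2.65 ± 0.65 in wt_saline, wt_OVA, ko_saline and ko_OVA, and every pair of groups overlapped.

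**Figure D2:**
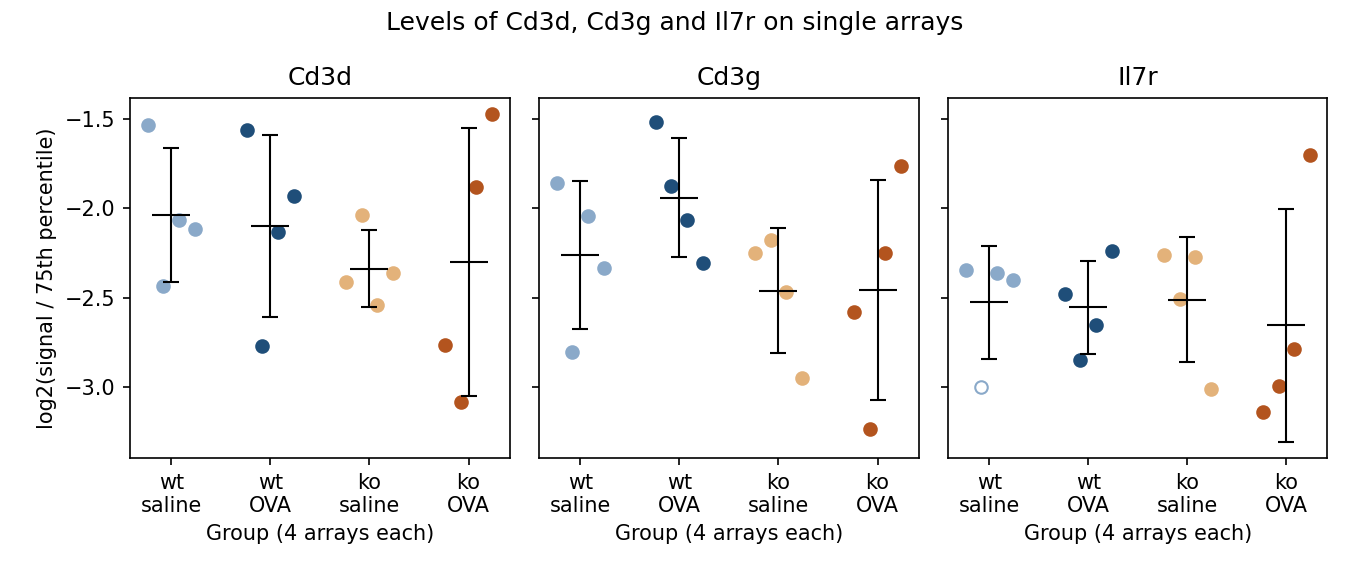
Points are single arrays, on the relative log2 scale of the y axis, with the replicates of each group side by side in order of their number; black lines are group means with SD (n = 4), and the open point was not well above background. All groups overlap for Cd3d, Cd3g and Il7r, and ko_OVA has the widest spread (SD 0.75, 0.62 and 0.65).

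Gata3, the type 2 transcription factor, was well above background on 11 arrays and exceeded the floor on 4. Before the floor was applied, its levels in wt_saline were -4.31, -5.40, -4.69 and -3.94, with the first 2 of these not well above background. In wt_OVA they were -2.58, -3.27, -4.63 and -3.59, with the third not well above background. In ko_saline they were -3.44, -3.11, -3.39 and -4.69, and in ko_OVA they were -3.90, -3.72, -3.39 and -2.99, with the last of each group not well above background. The wt_saline arrays were thus the lowest as a group, and at least 3 of 4 arrays of each other group lay above all of them. With the floor at -3.32, which hides all 4 wt_saline values, the difference between wt_OVA and wt_saline was 0.20 ± 0.14 (SE, n = 4 per group; limma adjusted p = 0.525). With the floor lowered by 3 it was 1.07 (limma adjusted p = 0.245), and the unadjusted p then fell under 0.05. Without wt_OVA 1 and wt_OVA 2 it was 0.00, since both remaining wt_OVA arrays lay at the floor. The ko_saline against wt_saline difference was 0.05 ± 0.14 with the floor at -3.32 and 0.93 with the floor lowered by 3 (limma adjusted p = 0.852). None of these passed the threshold.

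The coreceptors were seen on few arrays. Cd4 was well above background on wt_OVA 1, at -1.82 (70.0 intensity units), and on wt_OVA 2, at -4.23 (30.7 units). On the other 14 arrays its signal was 1.55 to 13.3 units. The brightest of the 3 Cd8a probes was well above background on wt_OVA 1 (-2.74), wt_OVA 2 (-3.96) and wt_saline 3 (-4.32). A further Cd8a probe reached that mark on wt_OVA 2 alone and the third on no array. Both coreceptors thus had their highest value on wt_OVA 1, and neither was well above background on any ko array. Cd4 was not so on any wt_saline array either, and Cd8a was so on 1 of them. Of all dim probes, 72.6% were well above background on wt_OVA 1 and 63.9% on wt_OVA 2, against 22.1% at most elsewhere.

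Icos, the costimulatory receptor, was well above background on 5 arrays: wt_OVA 1 (-3.26), wt_OVA 2 (-4.57), ko_saline 3 (-4.70), ko_OVA 1 (-3.81) and ko_OVA 3 (-4.60). It exceeded the floor on wt_OVA 1 alone. Foxp3, the regulatory T cell factor, was well above background on 3 arrays, and its highest value came from a saline array. It lay at -1.50 on wt_saline 4 (130 intensity units), at -3.82 on wt_OVA 1 and at -4.86 on wt_OVA 2, while its signal on the other 3 wt_saline arrays was -1.32 to 2.59 units. Ctla4 was well above background on wt_OVA 1 alone (-3.84). No fold is given for Cd4, Cd8a, Icos, Foxp3 or Ctla4 between groups, because at most 2 of the 4 arrays of a group measured each.

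**Figure D3:**
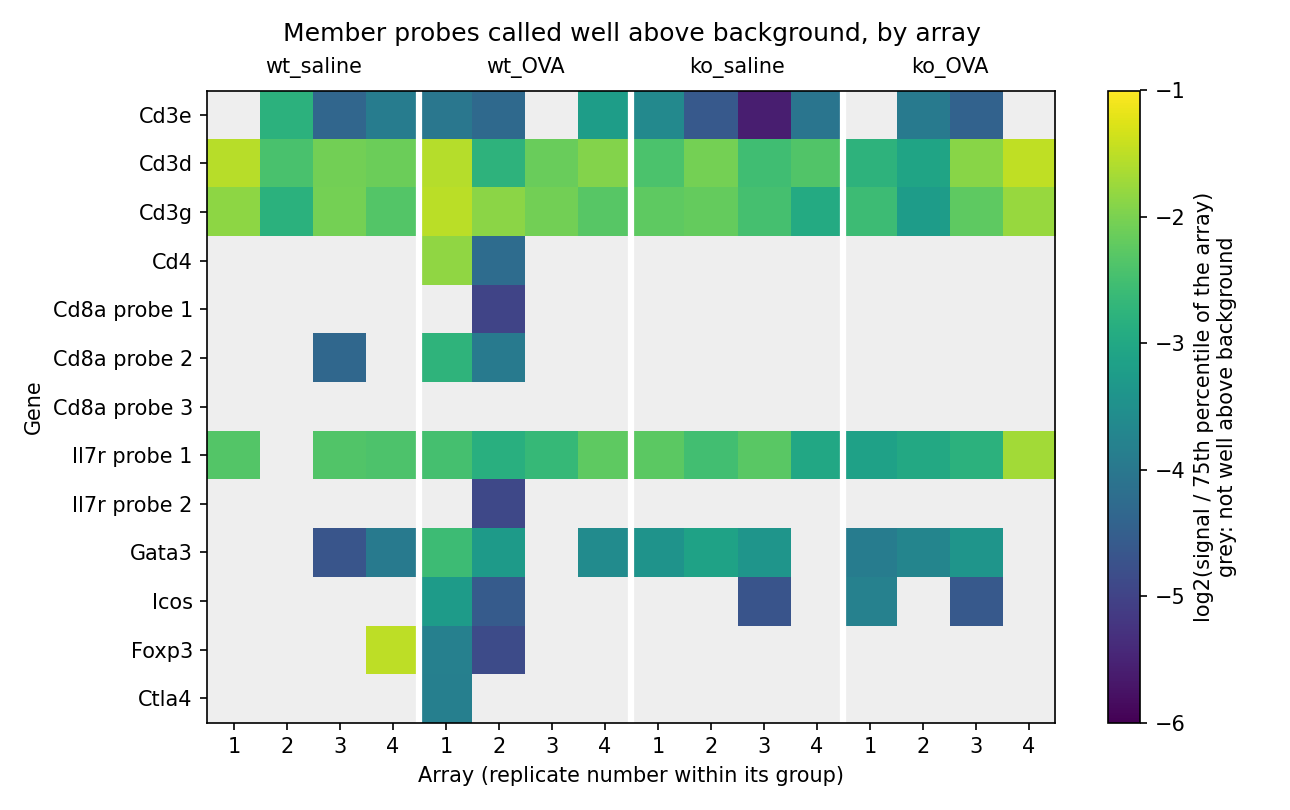
Each row is 1 of the 13 probes, each column 1 of the 16 arrays, and the colour gives the relative log2 level where the spot was well above background (grey where it was not). Cd3d and Cd3g are filled on all arrays, whereas Cd4 is filled on wt_OVA 1 and wt_OVA 2 and Ctla4 on wt_OVA 1 alone.

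All 10 genes were well above background on wt_OVA 1 and 9 on wt_OVA 2, against 3 to 6 on each of the other 14 arrays. In wt_saline 7 of the 10 were so on at least 1 array, in wt_OVA 10, in ko_saline 6 and in ko_OVA 6. The wt_OVA count rests on wt_OVA 1 and wt_OVA 2, since wt_OVA 3 and wt_OVA 4 had 3 and 5 genes. On wt_OVA 1 and wt_OVA 2, 72.6% and 63.9% of all dim probes were well above background, against 22.1% at most elsewhere. The share of all probes by group was not computed, so these counts are no result particular to the members. Array wt_OVA 1 held the highest level of 6 of the 10 genes (60%): Cd3g, Cd4, Cd8a, Gata3, Icos and Ctla4. The same array held the highest level of 33.4% of all 41174 probes, while each other array did so for 2.34% to 7.34%. The part that this array-wide difference has in the members' values was not tested. Of 9 B and plasma cell markers, some were highest on the same array. Cd79b lay at 2.07 on wt_OVA 1 and at 1.37 to 1.58 on ko_saline 1, 2 and 3, and at 0.05 or below on the other 12. Ms4a1, another B cell gene, lay at 1.32 on wt_OVA 1, at 0.18 to 0.81 on ko_saline 1, 2 and 3 and at the floor elsewhere. Xbp1 and Jchain, the brightest of these markers, were highest on other arrays, wt_OVA 3 (3.40) and ko_OVA 1 (3.985). Of 7 genes of developing T cells in the thymus, 3 (Rag1, Rag2 and Ptcra) were well above background on no array. The others were so on at least 1 array. Among them, Cd1d1 lay at -2.57 to -0.87 over the arrays and Dntt at -3.32 to -2.59.

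None of the 6 members in the fit (Cd3e, Cd3d, Cd3g, Il7r, Gata3 and Icos) passed an adjusted p of 0.05 in limma in any of the 7 comparisons, and none had an unadjusted p under 0.05. Cd3e, Gata3 and Icos exceeded the floor on only 2, 4 and 1 arrays, so their tests carry little information. Over all genes the share with an unadjusted p under 0.05 was 16.5% for OVA in wt, 9.73% for OVA in ko, 6.3% for ko after saline, 5.08% for ko after OVA and 3.06% for the interaction, and 19.7% and 7.77% for the averages of OVA and of ko. Cd4, Cd8a, Foxp3 and Ctla4 were well above background on fewer than 4 arrays and were left out of this fit. Fitted without the filter on dim probes, Cd4, Cd8a and Foxp3 were not called in any comparison (smallest limma adjusted p = 0.487), and Ctla4 lay at the floor on all 16 arrays. For OVA against saline in wt, 0 of 6 members were called, against 2.61% of the 18566 genes tested. The Cd3d difference was -0.06 ± 0.33 (SE; 95% interval -0.77 to 0.65), that of Cd3g was 0.32 ± 0.29 (-0.31 to 0.95) and that of Il7r was -0.03 ± 0.28 (-0.63 to 0.57). As folds, the intervals ran from 0.586 to 1.56 for Cd3d, from 0.807 to 1.93 for Cd3g and from 0.647 to 1.49 for Il7r, so changes within these bounds are not excluded. For OVA against saline in ko, 0 of 6 were called, against 0.749% of all genes. Cd3d differed by 0.03 ± 0.33, Cd3g by 0.00 and Il7r by -0.14 ± 0.28, and the sign of each turned between slides. Without ko_OVA 4, the dimmest array, the values were -0.24 for Cd3d, -0.23 for Cd3g and -0.46 for Il7r, and the last had an unadjusted p of 0.0490 in limma (adjusted p = 0.560).

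After saline, ko against wt gave 0 of 6 members called, against 0.162% of all genes. The Cd3d difference was -0.30 ± 0.33 (95% interval -1.01 to 0.41), with Cd3g at -0.20 and Il7r at 0.01 ± 0.28. After OVA, ko against wt gave 0 of 6, against 0.145% of all genes. Cd3g had the lowest p of any member in any comparison there, with a difference of -0.52 ± 0.29 (95% interval -1.14 to 0.11; limma unadjusted p = 0.100, adjusted p = 0.884). Within the 3 slides that held both groups, the same Cd3g difference was -0.37, -0.27 and 0.02. Without ko_OVA 4, which held the highest Cd3g level of ko_OVA (-1.77), that Cd3g difference was -0.75 (limma unadjusted p = 0.0199, adjusted p = 0.770). Array wt_OVA 1 held the highest Cd3g level of wt_OVA (-1.52), and the difference without that array is not given here. Cd3d differed by -0.20 ± 0.33 and Il7r by -0.10 ± 0.28 in this comparison, and by -0.48 and -0.42 without ko_OVA 4 (limma adjusted p = 0.798 for both).

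The test of whether the response to OVA differed between the genotypes called 0 of 6 members and 0% of all genes. Cd3g had -0.32 ± 0.41, Cd3d 0.10 ± 0.47 and Il7r -0.12 ± 0.40. Averaged over the genotypes, OVA against saline called 0 of 6 members against 6.46% of all genes, with Cd3g at 0.16 ± 0.21. Averaged over the agents, ko against wt called 0 of 6 members against 0.269% of all genes, with Cd3g at -0.36 ± 0.21 and Cd3d at -0.25 ± 0.23. The median over the 6 tested members was -0.01 for OVA in wt and -0.11 for ko after OVA, where the median over all genes was 0.00 in both. The floor holds the differences of Cd3e, Gata3 and Icos near 0, so these medians partly reflect the floor. Without wt_OVA 1 these medians were -0.05 and -0.03 over 5 genes, and without wt_OVA 1 and wt_OVA 2 they were 0.00 and -0.21. In these bulk samples, a different number of lymphocytes and a different amount of RNA of a gene per lymphocyte cannot be told apart.

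**Figure D4:**
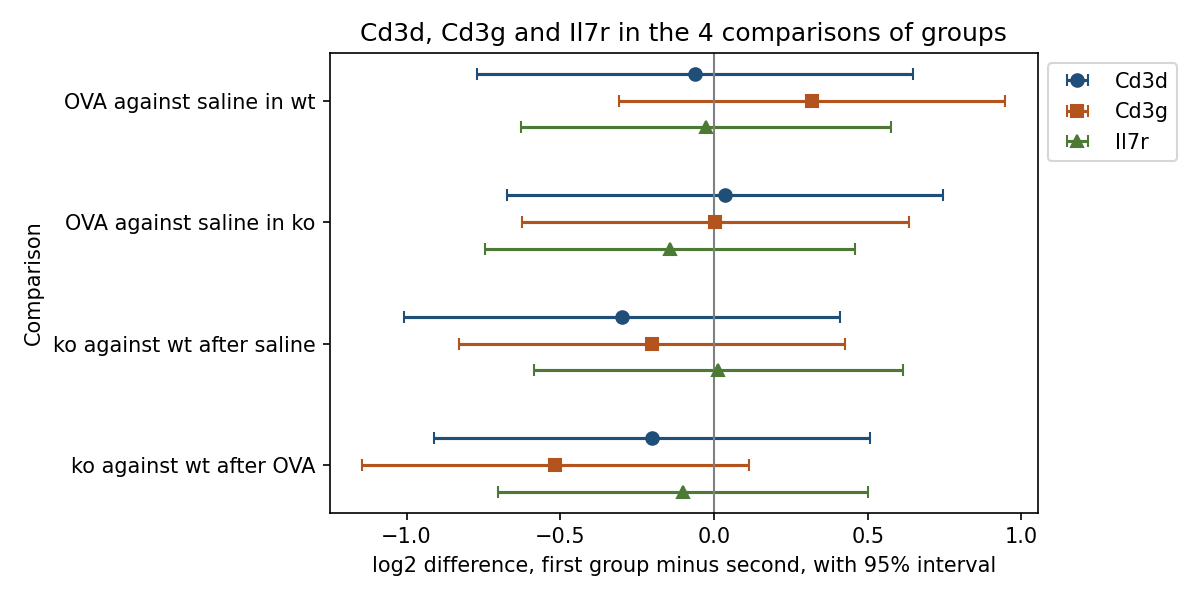
Points are log2 differences of group means (first group minus second) and bars their 95% intervals from the limma fit, for Cd3d, Cd3g and Il7r in 4 comparisons. Every interval contains 0, and the widest reach is that of Cd3g in ko against wt after OVA (-1.14 to 0.11).

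Although the groups did not separate, single arrays tended to order Cd3d, Cd3g and Il7r alike, with the relations of Il7r depending on the processing. Over the 16 arrays Cd3d and Cd3g had a Pearson r of 0.72 (permutation p = 0.00181, adjusted over 3 pairs 0.00543) and a Spearman rho of 0.67 (permutation p = 0.00583, adjusted 0.0175). Without ko_OVA 2 and ko_OVA 4, the arrays farthest from the median of Cd3d, r was 0.55. With the group means removed it was 0.73, and with the slide means removed 0.55. Cd3d and Il7r had an r of 0.66 (permutation p = 0.00538, adjusted 0.00807) and a rho of 0.56 (permutation p = 0.0264, adjusted 0.0397). That r was 0.49 without the same 2 arrays, 0.68 with group means removed and 0.58 with slide means removed. Cd3g and Il7r had an r of 0.60 (permutation p = 0.0136) and a rho of 0.49 (permutation p = 0.0544). The r of Cd3g with Il7r was 0.61 without ko_OVA 2 and wt_OVA 1, 0.68 with group means removed and 0.50 with slide means removed. In the authors' series table the Il7r relations were weaker, at 0.34 with Cd3d (permutation p = 0.199) and 0.23 with Cd3g (permutation p = 0.381). With quantile normalization of the arrays they were 0.55 with Cd3d (permutation p = 0.0272) and 0.45 with Cd3g (permutation p = 0.0797). With another background correction (normexp) they were stronger, at 0.84 and 0.80. All genes of an array share its scaling, and the r with the log2 75th percentile of the array was -0.53 for Cd3d, -0.13 for Cd3g and -0.37 for Il7r. The part of array brightness in these relations was not tested.

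**Figure D5:**
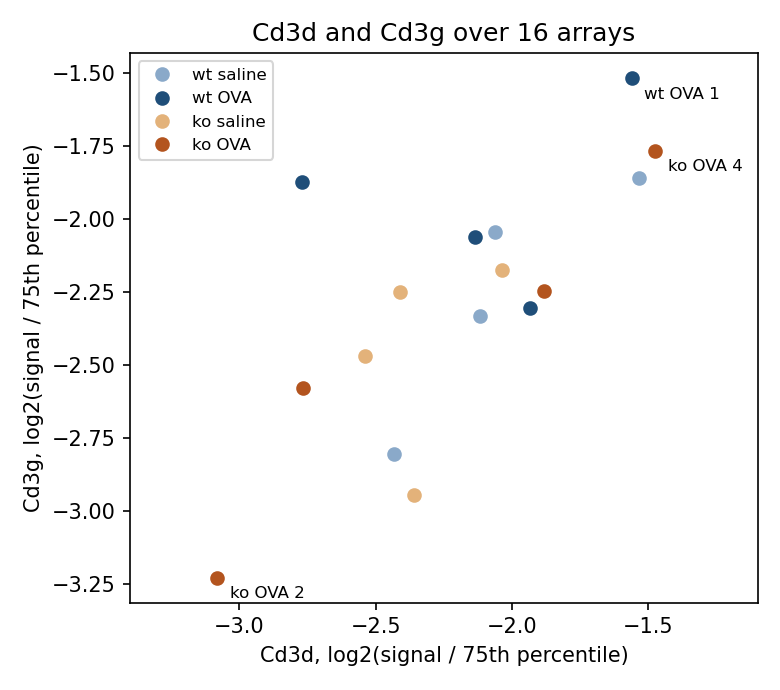
Each point is 1 of the 16 arrays, with the relative log2 level of Cd3d on the x axis and that of Cd3g on the y axis, coloured by group. The arrays run together from ko_OVA 2 at the lower left to wt_OVA 1 and ko_OVA 4 at the upper right (r = 0.72), with the groups mixed along the way.

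Among 12331 other genes with a symbol, Cd3g ranked 33rd by its r with Cd3d, and Cd3d ranked 28th by its r with Cd3g. The 10 genes most like the mean of Cd3d and Cd3g over the 16 arrays, of 12326 compared, were taken by Pearson r, which is a description, and 9 of them are named. They included Ubd, a ubiquitin-like protein (0.83), Psmb8, an immunoproteasome subunit (0.81), Zfp81, a zinc finger protein (0.79), and H2-Aa, an MHC class II chain (0.79). Next came Apobr, a lipoprotein receptor (0.79), and Spib, an ETS factor of B cells and plasmacytoid dendritic cells (0.78). Evl, a regulator of actin filaments (0.78), and Cep43, a centrosome protein (0.77), followed, with Fermt3, a kindlin of blood cells that activates integrins (0.77). Without wt_OVA 1 and ko_OVA 4 the r of these 10 genes was 0.67 to 0.78. Over 14 tested genes of the T cell receptor complex and its signalling, r with the same mean had a median of 0.41, against 0.01 over all 12326 genes, and 13 lay above 0. They ran from -0.48 for Zap70, the kinase that binds the phosphorylated CD3 chains, through Lat (0.26) and Lck (0.74), to 0.74 for Bcl11b, a transcription factor of T cells. Cd3e itself had an r of -0.23. Over 5 pan leukocyte genes r ran from 0.09 for Cd53 to 0.72 for Cd52, with a median of 0.63, and over 7 B and plasma cell genes the median was 0.26. Lists of other cells and tissues were not at 0 either. The median was 0.43 over 7 macrophage and dendritic cell genes, 0.44 over 2 eosinophil genes and 0.38 over 3 thyroid genes. It was 0.38 over 6 skeletal muscle genes, -0.12 over 7 airway epithelium genes and -0.25 over 6 mast cell genes. A median near that of the receptor genes was thus not particular to them. The summed signal of 5 pan leukocyte genes ran from 2.81 to 3.19 over the wt_saline arrays and from 2.86 to 3.99 over wt_OVA, and from 2.27 to 3.35 over ko_saline and 2.45 to 4.21 over ko_OVA, on the relative log2 scale. Its upper end in ko_OVA was reached on the array with the highest Cd3d and Il7r, ko_OVA 4, where Coro1a (2.94), Cd52 (2.77) and Ptprc (1.61) were all at their highest.

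Of 22 genes of the T cell receptor complex and its proximal signalling, 14 were tested and none was called in any comparison in limma. Over all genes 0% to 6.46% were called. An unadjusted p under 0.05 was seen for 3 of the 14 in ko after saline, against 6.3% of all genes. For ko averaged over the agents it was seen for 4, against 7.77%. In each other comparison it was seen for 0 or 1. For OVA in wt their median difference was 0.31, against 0.00 over all genes, and 12 of 14 lay above 0. Lef1 exceeded the floor on wt_OVA 1 alone, so that array set its sign. Without wt_OVA 1 the median was 0.14 over 13 genes, of which 7 lay above 0. Cd5, a receptor that restrains T cell signalling, lay at -3.16 to -2.40 in wt_saline and -2.55 to -1.17 in wt_OVA, and its difference was 0.63 ± 0.34 (limma adjusted p = 0.381). Lat, the adaptor that carries the receptor signal onward, lay at -1.65 to -1.43 in wt_saline and -1.55 to -0.27 in wt_OVA. Its difference was 0.49 ± 0.29 (limma adjusted p = 0.429). In ko_saline Lat lay at -1.02 to -0.49, above every wt_saline array (0.75 ± 0.29, limma adjusted p = 0.688). For ko after saline Cd5 went the other way (-0.42 ± 0.34, limma adjusted p = 0.905), and the median of the 14 genes was -0.06. The highest array of both genes in wt_OVA was wt_OVA 1.

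Of 16 type 2 helper T cell and group 2 innate lymphoid genes, 9 were tested and 1, Il1rl1, was called, in every comparison but OVA in ko and the interaction. Over all genes 2.61% were called for OVA in wt, 0.162% for ko after saline and 0.145% for ko after OVA. Il1rl1 encodes the interleukin 33 receptor, which mast cells carry too. Its levels were -3.32 to -1.69 in wt_saline, -0.32 to 0.05 in wt_OVA, 1.53 to 1.99 in ko_saline and 1.61 to 3.09 in ko_OVA, so only the ko groups overlapped each other. The differences were 2.27 ± 0.32 for OVA in wt (limma adjusted p = 0.00211), 4.14 ± 0.32 for ko after saline (limma adjusted p = 8e-06) and 2.30 ± 0.32 for ko after OVA (limma adjusted p = 0.0049). The last call was lost without wt_OVA 1 and wt_OVA 2 (2.30, limma adjusted p = 0.0869), and with the slide (2.33, adjusted p = 0.0512) or the place on the slide (2.14, adjusted p = 0.0867) as a block. With the place on the slide as a block the call for OVA in wt was lost too (2.06, limma adjusted p = 0.0519). For OVA in ko it was 0.43 ± 0.32 (limma adjusted p = 0.784), and the test of the difference between the genotypes gave an adjusted p of 0.964. The summed signal of 6 tested mast cell markers moved alike, at 0.02 to 1.23 in wt_saline, 2.58 to 3.48 in wt_OVA, 5.42 to 5.88 in ko_saline and 5.46 to 6.38 in ko_OVA. The mast cell chymase Cma1 had group means of -0.04, 1.54, 4.72 and 4.76 in the same order, and each of the 7 matched mast cell markers was well above background on at least 1 array. Their part in the Il1rl1 result was not tested. The median of the 9 genes was 0.05 for OVA in wt, with 6 above 0, against 0.00 over all genes. Without wt_OVA 1 it was -0.02, with 2 of 9 above 0.

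Of 14 regulatory T cell and checkpoint genes, 9 were tested and 2 were called, both for OVA averaged over the genotypes, where 6.46% of all genes were called. Havcr2, the checkpoint receptor TIM-3, which myeloid cells also carry, was higher after OVA by 0.63 ± 0.15 (limma adjusted p = 0.0202). It lay at -1.68 to -1.22 in wt_saline, -1.02 to -0.65 in wt_OVA, -2.20 to -1.84 in ko_saline and -2.13 to -1.02 in ko_OVA. Nt5e, the ectoenzyme CD73, which epithelium also carries, was higher after OVA by 0.51 ± 0.12 (limma adjusted p = 0.0202), with 0.58 to 1.26 in wt_saline, 1.30 to 1.84 in wt_OVA, 0.61 to 0.92 in ko_saline and 0.95 to 1.46 in ko_OVA. Both calls were lost when arrays were scaled on their median (0.50 and 0.38, limma adjusted p = 0.251 and 0.521). That of Havcr2 was also lost with the place on the slide as a block (0.55, limma adjusted p = 0.199) and without wt_OVA 1 and wt_OVA 2 (0.62, adjusted p = 0.0618), and that of Nt5e with the slide as a block (0.48, adjusted p = 0.0910). For OVA in wt all 9 genes lay above 0 with a median of 0.34. Lag3 exceeded the floor on wt_OVA 1 alone, so that array set its sign. Without wt_OVA 1 the 8 genes left all lay above 0, with a median of 0.13, against -0.01 over all genes.

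Of 18 cytotoxic T and natural killer genes, 8 were tested and none was called in any comparison, where 0% to 6.46% of all genes were called. All 8 lay above 0 for OVA in wt, with a median of 0.40. Xcl1 exceeded the floor on wt_OVA 1 alone, so that array set its sign. Without wt_OVA 1 the 7 genes left all lay above 0, with a median of 0.32, against -0.01 over all genes. For ko after OVA 2 of 8 lay above 0, with a median of -0.23. Without wt_OVA 1 that median was -0.10 over 7 genes. Ctsw, a cathepsin of these cells, differed by 0.57 ± 0.19 for OVA in wt (limma adjusted p = 0.145), and Nkg7, a granule protein, by 0.75 ± 0.30 (limma adjusted p = 0.232). Nkg7 lay at -2.63 to -1.62 in wt_saline and -2.24 to -0.88 in wt_OVA, so the groups overlapped. Of 8 type 3 genes, 4 were tested and none was called, against the same shares of all genes. Ahr, a receptor for aryl compounds that epithelium also carries, differed by -0.43 ± 0.14 for OVA in wt (limma adjusted p = 0.137), and Ccr6, a chemokine receptor, by -0.35 ± 0.25 (limma adjusted p = 0.514).

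Of 9 tissue residence and gamma delta T genes, 5 were tested and 1, Itgae, was called, in 2 comparisons in which 2.61% (OVA in wt) and 6.46% (OVA averaged over the genotypes) of all genes were called. Itgae encodes the integrin chain CD103, with which lymphocytes lodged in an epithelium hold on to E-cadherin, and mucosal mast cells carry it too. Its levels were -1.04, -1.22, -0.12 and -0.60 in wt_saline and 0.63, 0.41, 0.15 and 0.61 in wt_OVA. In ko_saline they were -1.26, -0.82, -1.19 and -1.39, and in ko_OVA they were -1.12, -0.81, -0.60 and -0.30. All wt_OVA arrays thus lay above all other arrays, while the ko groups overlapped each other. The difference was 1.19 ± 0.23 for OVA in wt (limma adjusted p = 0.0131) and 0.83 ± 0.16 for OVA averaged over the genotypes (limma adjusted p = 0.00779). For OVA in ko it was 0.46 ± 0.23 (limma adjusted p = 0.565), and for ko after OVA it was -1.16 ± 0.23 (limma adjusted p = 0.104). Whether the response differed between the genotypes did not pass (-0.74 ± 0.33, limma adjusted p = 0.993). Without wt_OVA 1 and wt_OVA 2 the value for OVA in wt was 1.12 (limma adjusted p = 0.100), without wt_saline 1 it was 1.09 (adjusted p = 0.0509), and with arrays scaled on their median it was 0.92 (adjusted p = 0.149). With the place of an array on its slide as a block, the values were 1.05 for OVA in wt and 0.69 for the average (limma adjusted p = 0.176 and 0.152). Among the members, Cd3d and Cd3g differed by -0.06 and 0.32 for OVA in wt, as given above.

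Of 19 ligands and partners of the members, 16 were tested and none was called in limma, where 0% to 6.46% of all genes were called. For OVA in wt 3 had an unadjusted p under 0.05 in limma, against 16.5% of all genes. B2m, the light chain of MHC class I, differed by 0.62 ± 0.24 (limma adjusted p = 0.198), at 3.76 to 4.56 in wt_saline and 4.42 to 5.16 in wt_OVA. Icosl, the ligand of Icos, differed by -0.46 ± 0.18 (limma adjusted p = 0.229), at -1.15 to -0.33 in wt_saline and -1.48 to -0.95 in wt_OVA. Over the 16 genes the median was 0.20 for OVA in wt, and -0.10 for ko after OVA, and without wt_OVA 1 these were 0.14 and -0.04.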

How the data were processed

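RNA of airway epithelium in 4 groups of 4 arrays was labelled with Cy3 from 0.5 ug, per the labels' protocols. The deposited scanner files give each spot a background-subtracted intensity and flags, per the file headers. The authors scanned with Agilent Feature Extraction: the headers name version 10.5.1.1, the submitters' processing notes 10.1. Log2 values in the deposited series table rank the probes of an array as the median spot intensity does. Control spots and outlier spots were left out. Each signal was set against the 75th percentile of its array, raised to the common floor, and log2 transformed, which compresses differences of dim genes. A probe was kept if at least 4 of 16 arrays marked it well above background (25615 of 41174), and the brightest probe stood for each gene. RefSeq accessions named 24844 probes. A single limma 3.58.1 fit took in all arrays (R 4.3.3), with 1 mean per group and Benjamini-Hochberg adjustment at 0.05 over 18566 genes and unnamed transcripts, and the procedure was tested on simulated data. Permutation tests were two-sided, and scipy 1.17.1 gave the ranks for Spearman's rho. The members, the gene lists and the comparisons were chosen with earlier results of these data known. Beside the members, the text names called genes of each list, or those with the smallest p for OVA in wt, the highest markers, and the 10 genes most like Cd3d and Cd3g, of which 1 is not reported here. Replicate numbers are shared by the groups, and the labels do not say whether they pair arrays. The correlation of deviations ran from -0.40 to 0.42 between arrays of the same number and from -0.57 to 0.47 between others. That cannot decide the question, and the main fit did not use the numbers as pairs. The number of arrays limits the precision.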

Additional observations from a re-analysis of the deposited data

Results flagged for a closer look

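In 10 of the 21 sets of 4 arrays in which a member did not lie at the floor throughout, 1 array stood apart from the other 3 of its group by more than 0.829 of the group's range. Chance flags about 1 in 20 such sets when values are spread evenly. In all of these sets but that of Il7r, 2 or 3 of the other arrays lay at the floor of -3.32, where values have no order, so that a single array above it stands apart by construction.

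Cd4 (-1.82), Cd8a (-2.74), Gata3 (-2.58) and Icos (-3.26) stood apart in wt_OVA on wt_OVA 1, the array with the most probes well above background. Foxp3 stood apart in wt_saline on wt_saline 4 (-1.50), which was its highest value of all 16 arrays. Cd3e stood apart on wt_saline 2 (-2.78) in wt_saline and on wt_OVA 4 (-3.22) in wt_OVA, and Gata3 on ko_saline 2 (-3.11) in ko_saline. Gata3 also stood apart on ko_OVA 4 (-2.99) in ko_OVA, where the spot was not well above background. Il7r on wt_saline 2 (-3.00) was the lowest of its group, on a dim array where it was not well above background.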

How the results depend on the processing

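Each comparison was refitted under up to 32 alternatives, and 0 members were called in limma in any of these 221 refits. Of 1305 differences of single members under the alternatives, 130 had the opposite sign to the value reported, all of them uncalled, and 11 had an unadjusted p under 0.05. The smallest adjusted p was 0.230, for Gata3 with OVA in wt, without ko_OVA 4 and with the floor of the other arrays. With the replicate number as a block (replicate block), 0 members were called and their smallest adjusted p was 0.540, with 0.691 for slide and 0.7498 for position on the slide. Scaling arrays on their median moved the median of all genes by -0.25 to 0.32. For Il1rl1, the call for OVA in wt was lost under 1 of 32 alternatives and that for ko after OVA under 4. The calls of Havcr2 and Nt5e were lost under 4 and 3 of 31, and those of Itgae under 5 of 32 (OVA in wt) and 2 of 31 (average). Over all genes, the count called for OVA in wt was 485 and ran from 94 to 562, and that for OVA in ko was 139 and ran from 7 to 168. For ko against wt the counts were 30 after saline (15 to 59) and 27 after OVA (7 to 37). Averages over genotypes or agents called 1200 (379 to 1363) for OVA and 50 (27 to 84) for ko, and the interaction 0 (0 to 4). Chosen after the data were seen were the floor lowered by 3 and the set without wt_OVA 1 and wt_OVA 2. So was the set without ko_OVA 4 that took the floor of the other arrays. Leaving out ko_OVA 4 alone, as each other array in turn, was planned. Signal over background limits Cd3e, Gata3 and Icos, and Cd4, Cd8a and Foxp3 were tested only without the filter on dim probes.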
